A study of Drosophila melanogaster with 35 samples.

Results

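A set of 243 transcripts of the fly wing, 1.57% of the 15473 on the array, went up in 2 steps in control animals, first between the larva and 24h of pupal life and again between 24h and 36h. They were chosen from log2 group means by a rule. The control mean at 36h had to be 8 or more, and each of the 2 control steps had to be 1 log2 unit or more, where 1 unit is a 2-fold difference. The dE2F1+dDP mean in the larva had to be less than 1 unit above control, and Cbt had to lie within 0.8 units of control at 24h or at 36h. The control steps, the larval difference between dE2F1+dDP and control, and the pupal differences between Cbt and control are therefore properties of the choice, and they are given below without a test.

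The arrays measured total RNA of dissected Drosophila melanogaster wings, with 10 wings pooled per sample, from 3 lines at 3 stages. The dE2F1+dDP line carried apterous-gal4, UAS-GFP and tubulin-Gal80temp.sens. together with UAS-dE2F1 and UASdDP, the Cbt line carried the same driver set with UAS-Cabut, and the control line carried the driver set alone. All lines thus shared the driver, the GFP and the temperature-sensitive repressor, were raised at 18 °C and then kept at 28 °C, where the driver is active. The stages were the wandering larva of instar 3 (L3) and 24h and 36h after pupa formation, and each of the 9 groups held 4 independently isolated samples except dE2F1+dDP at L3, which held 3. The apterous driver acts in the dorsal cells of the wing, while the RNA came from the whole wing, so each value mixes cells with and without the transgenes. In such bulk RNA, fewer cells of a type and less RNA per cell cannot be told apart.

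As background, the wing grows by cell division in the larva, and its cells stop dividing in the early pupa. They then differentiate, laying down cuticle and growing wing hairs under the control of pulses of the hormone ecdysone. E2F1 with its partner DP is a transcription factor that drives genes for DNA replication and cell division, and Cabut is a zinc-finger transcription factor of the Krüppel-like group. Pushing E2F activity in the pupal wing is known to delay, not to abolish, the exit from the cell cycle.

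The features carry FlyBase transcript IDs and no gene names. Of the 15473 IDs, 44 were found in the NCBI RefSeq gene table and 17 of those under 1 gene, and none of the 243 members was among them. No gene of the lists prepared for cuticle, pigment, ecdysone response, wing hairs, cell cycle and adhesion (121 entries with the markers of wing and other cell types) was tied to an ID, so the tissue label and the levels of the transgenes were not checked on these arrays. The members are therefore described by their values. Of the 243, 162 were read by 5 probes and 81 by 4, a share with 5 probes of 66.7%, against 65.3% over all transcripts. The closest pair of members differed by a root mean square of 0.094 log2 units over the 35 arrays and correlated at r = 0.997, and the next closest pair differed by 0.342. Whether the closest pair shares probes or a gene was not tested.

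The levels are log2 RMA intensities, and levels of different transcripts, read by different probes, are given only as ranges and ranks over the set. In control wings the median member stood at 7.74 at L3, 10.58 at 24h and 12.62 at 36h. Cbt wings, which the rule held near control at 24h or at 36h, had medians of 7.36, 10.42 and 12.35 at the same stages. In dE2F1+dDP wings the medians were 7.31, 8.41 and 10.95. The dE2F1+dDP median was thus below that of either other line at 24h and at 36h. Taken transcript by transcript, the dE2F1+dDP minus control difference had a median of -1.47 units at 24h and -1.43 at 36h.

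On single arrays the members' median was 7.32, 7.45 and 7.35 in dE2F1+dDP wings at L3 and 7.60, 7.59, 7.63 and 7.41 in Cbt wings. In control wings at L3 it was 8.71, 7.85, 7.52 and 7.10. The 4 control larval arrays were therefore spread more widely than those of both other lines, and the first of them stood highest. At 24h the array medians were 8.46, 8.65, 7.99 and 8.68 in dE2F1+dDP wings, 10.58, 10.08, 10.03 and 10.65 in Cbt wings, and 10.72, 10.07, 10.56 and 11.10 in control wings. At 36h they were 11.16, 10.96, 11.16 and 10.80 in dE2F1+dDP wings, 12.51, 12.15, 12.64 and 12.26 in Cbt wings, and 12.56, 12.70, 12.72 and 12.60 in control wings. At both pupal stages every dE2F1+dDP array lay below every Cbt and control array, and at 36h the Cbt and control arrays overlapped.

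**Figure D1:**
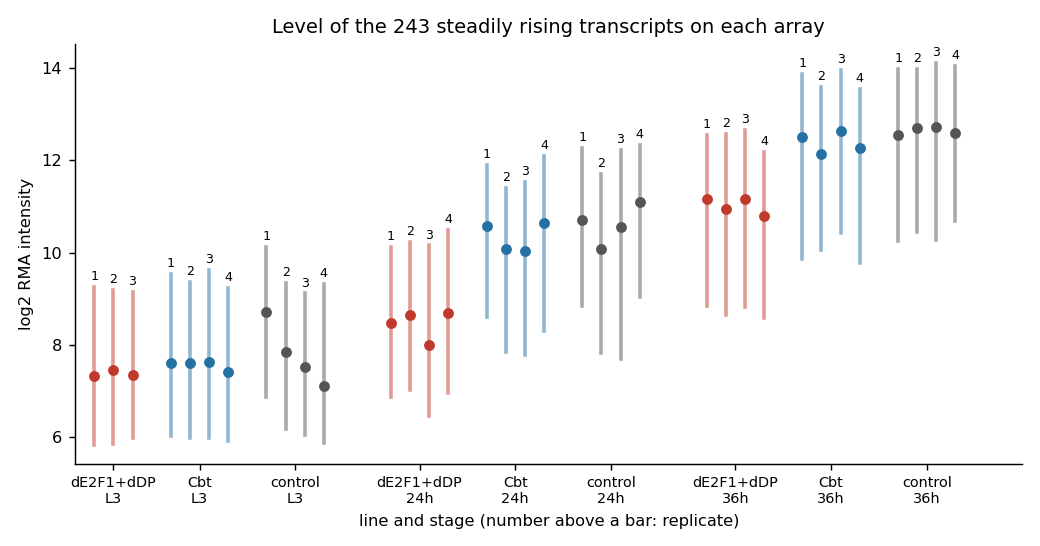
Median (point) and lower to upper quartile (bar) of the log2 RMA intensity of the 243 members on each of the 35 arrays, by stage and line, with the replicate number above each bar. The dE2F1+dDP arrays lie lowest at 24h (7.99 to 8.68) and at 36h (10.80 to 11.16), and control L3 replicate 1 (8.71) lies above the other larval arrays.

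Control L3 replicate 1 stood apart on these transcripts more than on the array as a whole. Its root mean square distance from its group mean was 1.06 over the members, against 0.49 to 0.59 for the other 3 control larval arrays, and 0.369 over all transcripts. It was the highest of the 4 control larval arrays for 149 members, or 61.3%, against 29.9% of all transcripts. The rule measured the first control step and the larval condition from the larval control mean, so this array bears on who is a member. Without it the rule kept 254 transcripts, 239 of them shared with the 243. At 24h, dE2F1+dDP replicate 3 and control replicate 3 also stood apart, with distances over all transcripts of 0.684 and 0.661 and array medians over all transcripts of 9.25 and 9.28, where the 35 arrays reached 10.02.

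The control steps varied among the members. From L3 to 24h the median rise was 1.97 units (range 1.00 to 6.79), and from 24h to 36h it was 1.61 (1.00 to 7.82). Over both steps it was 3.91 (2.12 to 9.41), and a median of 55.7% of it had been made by 24h (16.6% to 85.3%). For 153 members the step before 24h was the larger one, and for 90 it was the step after 24h. Without control L3 replicate 1 the median first step was 2.07 units, and 241 of the 243 members kept a first step of 1 unit or more.

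At the thresholds, the lowest control level at 36h inside the set was 8.12 and the nearest outside was 7.95, with 6 transcripts left out by that condition alone. The first control step was 1.00 inside and 0.98 outside (526 left out by it alone). For the second step it was 1.001 inside and 0.997 outside (889 left out). No transcript was removed by the larval condition alone, and the highest larval excess of dE2F1+dDP over control was 0.81. The condition on Cbt removed 31 transcripts, and the nearest differences were 0.796 inside and 0.801 outside. A limit of 0.8 on both steps would have given 344 members, and one of 1.2 would have given 164.

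Some members began near the lower end of the scale, where array intensities lose their proportion to the amount of RNA. Below 6.20, under which 25% of all transcript means fell, lay 82 of the 243 members in dE2F1+dDP, 75 in Cbt and 53 in control wings at L3. The share of all transcripts below it in each group is not given, so these counts do not set the members apart. At 24h the numbers were 38 in dE2F1+dDP wings, 5 in Cbt wings and 0 in control wings. At 36h only 1 member remained there, in dE2F1+dDP wings. Steps that start in this range have a less certain size. The replicates were also less alike on the members than on other transcripts: the median SD over the members was 0.493 in dE2F1+dDP, 0.493 in Cbt and 0.581 in control wings at 24h, against 0.356, 0.289 and 0.359 over all transcripts. Control wings at 36h, with 0.228 over the members against 0.242 over all transcripts, were the exception among the 9 groups.

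**Figure D2:**
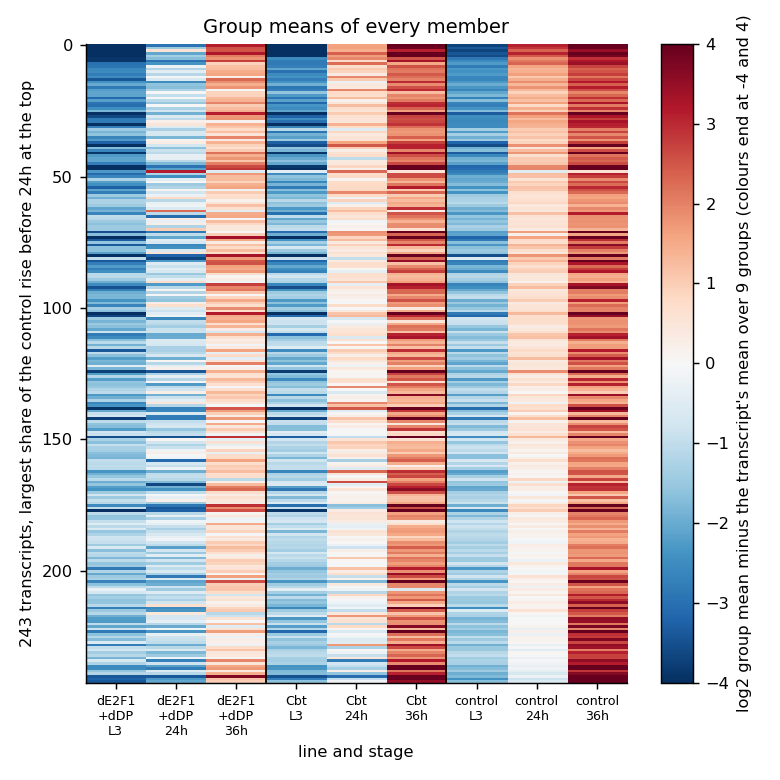
Group means of all 243 members (log2, minus each transcript's mean over the 9 groups) in dE2F1+dDP, Cbt and control wings, each at L3, 24h and 36h, with members ordered by the share of the control rise made before 24h. The 24h column is darker blue in dE2F1+dDP than in Cbt or control for most members, as the group medians of 8.41, 10.42 and 10.58 give, and the 36h column is paler (10.95, 12.35 and 12.62).

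The change inside the dE2F1+dDP line from 24h to 36h rests on arrays that the rule did not use. Most members went up over this interval in that line. By limma with Benjamini-Hochberg adjustment over 15473 transcripts, 185 of 243 members (76.1%) were higher at 36h than at 24h at an adjusted p under 0.05, against 9.18 percent of all transcripts, and 5 members were lower, against 6.73 percent. The median change over the members was 1.83 units (quartiles 1.01 and 2.95, range -3.66 to 7.12), and that over all transcripts was -0.03. It was positive for 228 members and negative for 15.

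The size and separation of this rise were as follows. For 175 members the change was both called and at least 1 unit, against 4.85 percent of all transcripts. In 181 members every dE2F1+dDP array at 36h lay above every one at 24h, against 9.51 percent of all transcripts. On the 1 slide that held both stages, with 1 array of each, the median change was 1.83 units over the members, with 224 higher and 19 lower at 36h. Leaving out dE2F1+dDP 24h replicate 3, which stood apart, gave a median of 1.68 units with 169 members called higher. The number called differed with where a transcript began in control wings: 33 of the 53 members below 6.20 at L3 were called (62.3%), and 152 of the other 190 (80.0%). Among members with the larger control step before 24h, 117 of 153 were called (76.5%), and among those with the larger step after 24h, 68 of 90 (75.6%).

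From the larva to 24h, the change in dE2F1+dDP wings had a median of 0.87 units over the members (range -2.68 to 5.60), against -0.05 over all transcripts. It was positive for 205 of the 243 members and reached 1 unit for 103. Taking both steps, 65 members rose by 1 unit or more in each in dE2F1+dDP wings, 38 before 24h alone, 118 after 24h alone and 22 in neither. Over the whole course from L3 to 36h all 243 members had a higher mean at 36h, with a median rise of 2.58 units, and 230 reached 1 unit. In Cbt wings 157 members rose by 1 unit or more in each step, with median steps of 1.96 and 1.67 units. These counts are descriptions, because the rule used the larval arrays of dE2F1+dDP wings and held the pupal arrays of Cbt wings near control, and the lines are not compared by them.

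**Figure D3:**
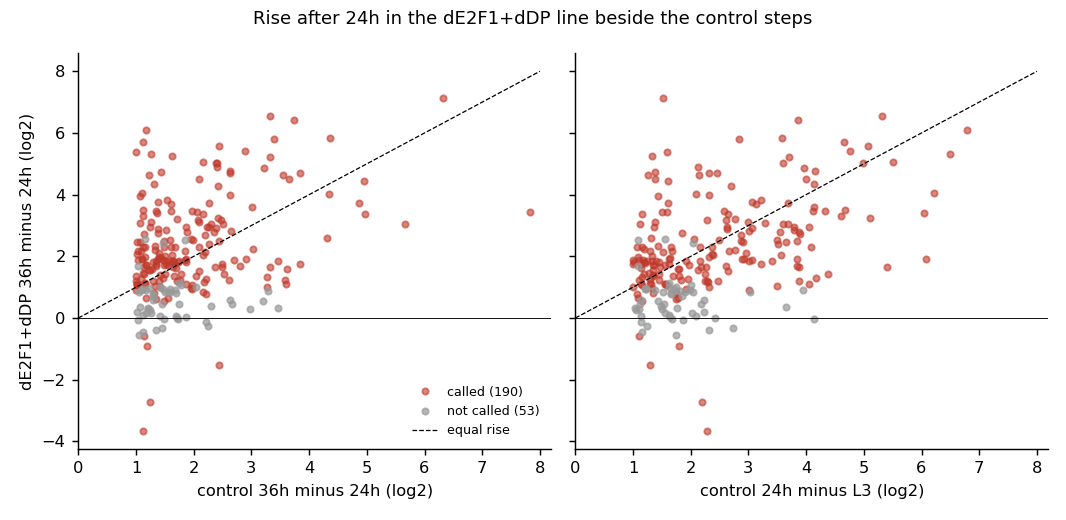
Change from 24h to 36h in dE2F1+dDP wings (log2, vertical axis) against the control step from 24h to 36h (left) and from L3 to 24h (right), 1 point per member, red where limma called the change (190) and grey where it did not (53), with a dashed line of equal change. The median change was 1.83 in dE2F1+dDP wings, beside control medians of 1.61 after 24h and 1.97 before it, and the points below 0 include the 5 members that were called lower.

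Across the 243 members, the change from 24h to 36h in dE2F1+dDP wings correlated with the control change from L3 to 24h at r = 0.46 (Spearman's rho 0.42), with that from 24h to 36h at r = 0.36 (rho 0.28) and with the whole control rise at r = 0.60 (rho 0.52). These are descriptions over transcripts, which share their arrays.

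Set against control at 24h, the members were lower in dE2F1+dDP wings. The dE2F1+dDP arrays of this comparison were not used by the rule, but the control arrays were, chosen to lie above the larval level and below that at 36h, so the share of members called is not on a par with that of unselected transcripts. By limma with Benjamini-Hochberg adjustment, 171 members (70.4%) were lower in dE2F1+dDP wings, against 14.6 percent of all transcripts, and 3 were higher, against 12.4 percent. The median difference was -1.47 units (range -6.04 to 3.64), that over all transcripts was -0.08, and 228 members had a negative value. A call with a difference of at least 1 unit was made for 154 members, against 6.40 percent of all. In 134 members every dE2F1+dDP array lay below every control array, against 12.0 percent of all. Within the 2 slides that held both groups the median was -1.37, with 214 members lower, and -1.25, with 189 lower.

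At 36h most members were again lower. The rule chose members for high values on the control arrays of this stage, which by itself favours a negative difference, so the shares given for all transcripts are not a like background. In dE2F1+dDP wings 178 members (73.3%) were lower than in control by limma with Benjamini-Hochberg adjustment, against 11.3 percent of all transcripts. None was called higher, against 12.3 percent of all transcripts, and 0 were higher at an unadjusted p under 0.05. The median difference was -1.43 units (range -5.83 to 0.33) with 240 members negative and 3 positive, and that over all transcripts was -0.04. For 158 members the call came with a difference of at least 1 unit, against 5.44 percent of all. Every dE2F1+dDP array lay below every control array in 210 members, against 15.3 percent of all. On the 1 slide that held both groups the median was -1.50 and 239 members were lower.

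**Figure D4:**
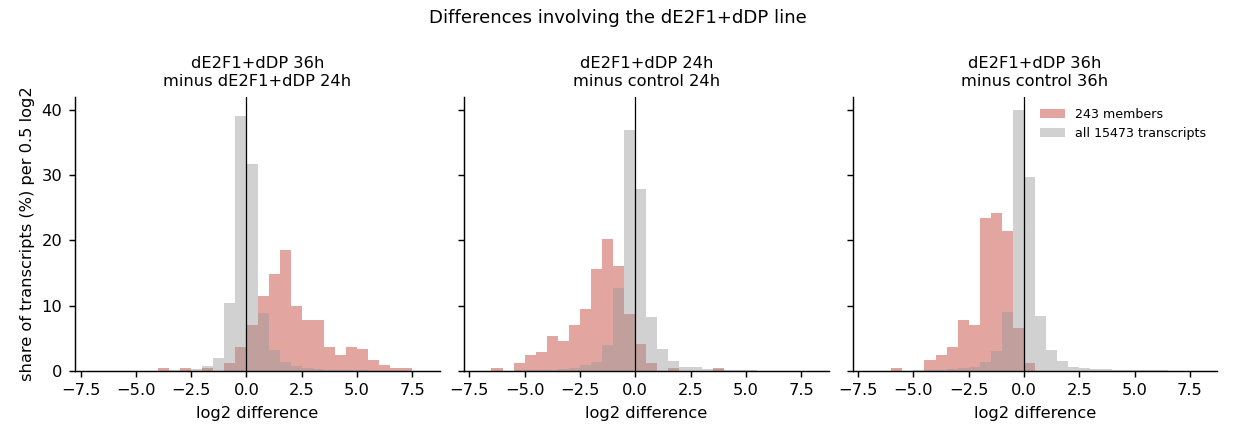
Share of transcripts (%) per bin of 0.5 log2 units for the 243 members (red) and all 15473 transcripts (grey), for the change from 24h to 36h inside dE2F1+dDP and for dE2F1+dDP minus control at 24h and at 36h. The members centre at 1.83, -1.47 and -1.43 while all transcripts centre at -0.03, -0.08 and -0.04.

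Combining the comparisons, 138 members were lower in dE2F1+dDP than in control wings at both stages, against 5.40 percent of all transcripts, 33 were lower at 24h alone (13.6%, against 9.17 percent), 40 at 36h alone (16.5%, against 5.90 percent) and 32 at neither (13.2%, against 79.5 percent). Both of these comparisons and the rule share the control line. Of the 138, 121 also rose inside the dE2F1+dDP line from 24h to 36h, and 17 were not called. All of these calls together thus held for 49.8% of the members, against 2.79 percent of all transcripts. Over the array, 431 of the 835 transcripts lower at both stages also rose from 24h to 36h in this line. All 33 members that were lower at 24h alone rose over that interval, which the control rise required by the rule leaves little room to avoid. Of the 40 that were lower at 36h alone, 11 rose, 4 fell and 25 were not called, and of the 32 lower at neither stage, 20 rose, 1 fell and 11 were not called. A call at one stage and not at the other does not show that the differences at the 2 stages differ, which was not tested.

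The 2 classes of control course had different medians in these comparisons. For the 153 members with the larger control step before 24h, the dE2F1+dDP minus control difference had a median of -1.72 units at 24h and -1.37 at 36h, with 118 and 112 called lower. For the 90 members with the larger step after 24h it was -1.13 and -1.66, with 53 and 66 called lower. The classes were cut on the control arrays that enter the differences, so their contrast is a description.

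Expressed against the control rise, the dE2F1+dDP mean at 24h stood at a median of 29.8% of the way from the control larval level to the control level at 24h (quartiles -1.82% and 54.8%, range -205.0% to 259.2%), and 179 members stood above the control larval level. At 36h it stood at 65.5% of the way to the control level at 36h (quartiles 49.2% and 76.3%). Without control L3 replicate 1 these medians were 35.2% and 66.8%. The level in dE2F1+dDP wings at 36h can also be set beside that of control wings at 24h. The difference between them had a median of 0.41 units (range -1.90 to 3.97), and over all transcripts a median of -0.08. Within 0.5 units lay 114 members and within 1 unit 195, and 168 lay above the control level at 24h. A limit of 1 unit is as large as the smallest control step that the rule allowed. Shares over all transcripts are not given for these counts, which are descriptions.

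In Cbt wings the pupal levels were held near control by the rule at one stage or the other. The Cbt minus control difference had a median of -0.27 units at 24h (range -2.82 to 2.81) and -0.32 at 36h (-2.76 to 1.52), with all-transcript medians of -0.01 and -0.03. Within 0.8 units of control at both stages lay 128 members, at 24h alone 48 and at 36h alone 67. At 24h 52 members were 0.8 units or more below control and 15 above it, and at 36h the counts were 42 below and 6 above. More members were thus below control than above it at both stages. The rule chose members for high control values at 36h, which by itself favours a negative difference there. At 24h the control arrays were chosen to lie above the larval level and below that at 36h. Shares over all transcripts are not given for these counts, which are descriptions.

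The larval comparison of Cbt with control is not part of the rule, although the control arrays are. By limma with Benjamini-Hochberg adjustment, 2 members were higher in Cbt wings, against 0.504 percent of all transcripts, and 2 were lower, against 0.265 percent. Both shares are small, and the members' median difference was -0.08 units (range -2.86 to 2.37), with 111 positive and 132 negative values. Control L3 replicate 1 decided its sign: without that array the median was 0.06, and on the 1 slide that held this array and a Cbt larval array it was -0.46, with 189 members lower. The corresponding median for dE2F1+dDP minus control at L3, which the rule bounded from above, was -0.26 (range -2.82 to 0.81), and it was -0.10 without that array.

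FBtr0086066 had the largest called rise from 24h to 36h in dE2F1+dDP wings. At L3 its log2 levels were 4.998, 5.38 and 5.22 in dE2F1+dDP wings, 5.03, 4.52, 5.90 and 4.96 in Cbt wings, and 10.35, 5.78, 5.64 and 5.55 in control wings. At 24h they were 5.08, 5.41, 5.35 and 4.95 in dE2F1+dDP wings, 7.30, 4.84, 5.23 and 4.78 in Cbt wings, and 10.01, 5.04, 10.10 and 8.26 in control wings. At 36h they were 12.57, 12.58, 12.45 and 11.69 in dE2F1+dDP wings, 14.21, 14.14, 14.48 and 13.96 in Cbt wings, and 14.78, 14.59, 14.82 and 14.48 in control wings. In dE2F1+dDP wings the transcript stayed near the bottom of the scale through 24h, as it did on 3 of the 4 Cbt arrays, while the control arrays at 24h ran from that level to 10.10. At 36h all dE2F1+dDP arrays lay below those of the other lines, while the highest Cbt and the lowest control array both read 14.48. The rise was 7.12 units (SE 0.83, limma adjusted p = 1.7e-07) from a level too low for its size to be exact. The difference from control was -3.16 units at 24h (SE 0.83, limma adjusted p = 0.00428) and -2.35 at 36h (SE 0.83, limma adjusted p = 0.0376). The call at 36h was lost under 9 of 15 alternatives, over which the adjusted p ran from 5.36e-05 to 0.108. The call at 24h was lost under 1 of 16, a fit to the 2 groups alone (adjusted p = 0.0823, in a range from 3.58e-05). The rule no longer kept this transcript without control 24h replicate 1 or without control 24h replicate 3, when its first control step was 0.97 or 0.94 units.

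FBtr0085710 had the largest called fall from 24h to 36h in dE2F1+dDP wings. Its levels at L3 were 6.72, 7.06 and 6.41 in dE2F1+dDP wings, 8.51, 8.96, 8.32 and 8.70 in Cbt wings, and 6.67, 5.24, 6.21 and 6.89 in control wings. Its levels at 24h were 12.90, 11.61, 11.57 and 12.67 in dE2F1+dDP wings, 11.17, 10.75, 12.09 and 11.19 in Cbt wings, and 8.94, 8.68, 7.52 and 9.04 in control wings. Its levels at 36h were 8.58, 8.61, 8.96 and 7.95 in dE2F1+dDP wings, 11.90, 8.81, 8.84 and 8.63 in Cbt wings, and 9.95, 9.56, 9.57 and 9.56 in control wings. Both transgene lines had their highest mean at 24h, where all their arrays lay above every control array, whereas the control mean was highest at 36h. The fall in dE2F1+dDP wings was -3.66 units (SE 0.50, limma adjusted p = 2.18e-06), and the difference from control was 3.64 units at 24h (SE 0.50, limma adjusted p = 9.5e-07) and -1.13 at 36h (SE 0.50, limma adjusted p = 0.105, from 0.00404 to 0.532 over 15 alternatives and called under 2 of them). In the larva it was also 1 of the 2 members higher in Cbt wings, by 2.37 units (SE 0.50, limma adjusted p = 0.0101). That call was lost without control L3 replicate 2 or without Cbt L3 replicate 2, and the adjusted p ran from 7.64e-06 to 0.0644 over its alternatives. Its place in the set rests on single arrays. The Cbt minus control difference at 36h was -0.11 with Cbt 36h replicate 1, which read 11.90, and -0.90 without it, when the rule no longer kept the transcript. Without control 24h replicate 3 its second control step was 0.78 units and it was not kept either.

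FBtr0078598 had the lowest difference between dE2F1+dDP and control wings at 36h and the largest control rise from L3 to 36h. At L3 it read 4.63, 4.70 and 4.73 in dE2F1+dDP wings, 5.26, 4.80, 5.71 and 4.98 in Cbt wings, and 5.95, 4.87, 4.85 and 6.23 in control wings. At 24h it read 5.20, 5.06, 7.18 and 4.98 in dE2F1+dDP wings, 5.56, 6.65, 7.24 and 8.51 in Cbt wings, and 6.99, 6.40, 7.45 and 7.44 in control wings. At 36h it read 10.07, 8.62, 9.41 and 8.12 in dE2F1+dDP wings, 11.74, 11.93, 14.43 and 10.81 in Cbt wings, and 14.68, 15.08, 14.99 and 14.81 in control wings. The 3 lines did not overlap at 36h, with Cbt wings between the other two. The difference between dE2F1+dDP and control was -5.83 units at 36h (SE 0.59, limma adjusted p = 4.14e-09) and -1.47 at 24h (SE 0.59, limma adjusted p = 0.0677). At 24h it was called under 3 of 16 alternatives: with array weights, without both 24h arrays that stood apart, and without dE2F1+dDP replicate 3 alone, the array that read 7.18. The last gave -1.99 units and an adjusted p of 0.0121, the lowest of the alternatives, which reached 0.174. Within the dE2F1+dDP line the change from 24h to 36h was 3.45 units (SE 0.59, limma adjusted p = 7.8e-05).

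FBtr0077584 had the highest difference between dE2F1+dDP and control wings at 36h, and it was small. At L3 the levels were 6.50, 5.42 and 6.55 in dE2F1+dDP wings, 5.83, 6.10, 6.38 and 6.12 in Cbt wings, and 6.21, 6.01, 5.70 and 6.24 in control wings. At 24h the levels were 7.23, 7.83, 7.36 and 7.45 in dE2F1+dDP wings, 6.82, 6.14, 6.58 and 6.87 in Cbt wings, and 7.51, 6.77, 6.49 and 8.03 in control wings. At 36h the levels were 8.53, 8.66, 8.96 and 8.01 in dE2F1+dDP wings, 7.95, 8.83, 9.05 and 8.11 in Cbt wings, and 8.06, 8.61, 8.52 and 7.64 in control wings. The lines overlapped at 36h, and the dE2F1+dDP and control arrays overlapped at each stage. The difference at 36h was 0.33 units (SE 0.30, limma adjusted p = 0.542). The rise inside the dE2F1+dDP line was 1.07 units (SE 0.30, limma adjusted p = 0.0135) and was not called without dE2F1+dDP 36h replicate 3, at 0.93 units and an adjusted p of 0.0609, with 0.0023 the lowest over the alternatives. The rule kept this transcript by a narrow margin, and leaving out any of 5 control arrays of 24h or 36h, 1 at a time, removed it.

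**Figure D5:**
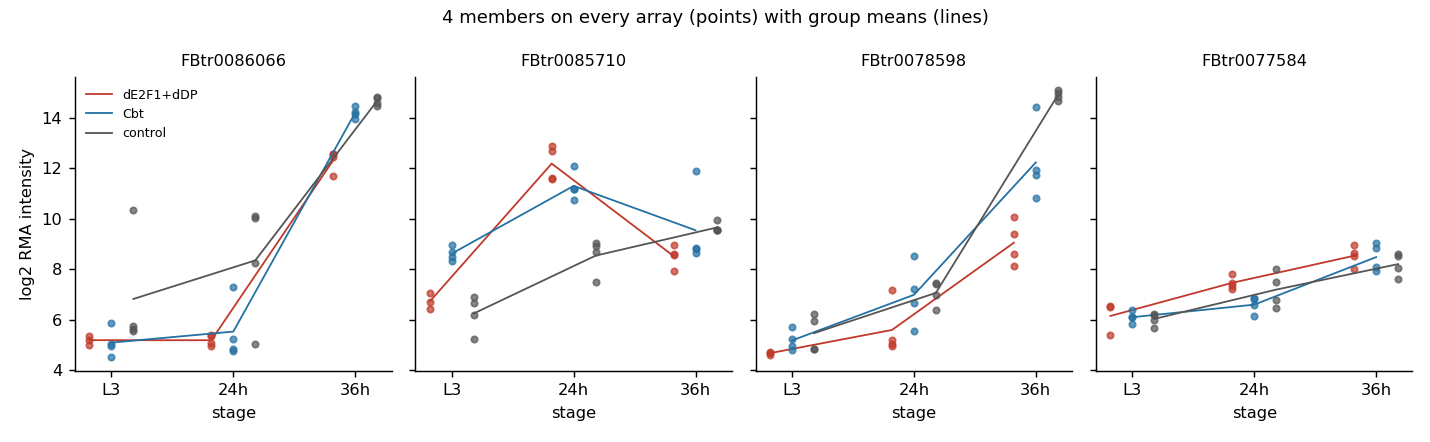
Log2 RMA intensity of FBtr0086066, FBtr0085710, FBtr0078598 and FBtr0077584 on every array (points) with group means joined by lines, for dE2F1+dDP (red, left at each stage), Cbt (blue) and control wings (grey, right). FBtr0086066 rises mostly after 24h in every line, with control means of 6.83, 8.35 and 14.67 at L3, 24h and 36h. FBtr0085710 peaks at 24h in both transgene lines (12.18 and 11.30, against 8.54 in control). FBtr0078598 separates by line at 36h (9.05, 12.23 and 14.89), and the lines of FBtr0077584 lie close together at 36h (8.54, 8.48 and 8.21).

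Other members are given by rank. The one with the largest control step before 24h was also the one lowest against control at 24h. Its mean levels over L3, 24h and 36h were 6.19, 8.06 and 14.15 in dE2F1+dDP wings, 6.25, 12.62 and 15.13 in Cbt wings, and 7.31, 14.09 and 15.27 in control wings. All 4 dE2F1+dDP arrays at 24h (6.64 to 8.85) lay below all 4 control arrays (13.17 to 14.56), with a difference of -6.04 units (SE 0.59, limma adjusted p = 2.1e-09). By 36h this member stood 6.10 units higher in dE2F1+dDP wings than at 24h (limma adjusted p = 6.64e-09), and its difference from control was -1.11 (limma adjusted p = 0.204, from 0.00131 to 0.371 over 15 alternatives and called under 2 of them). At 36h the SD of this member was 0.30 in dE2F1+dDP and 0.18 in control wings, while the SE, pooled over all groups, was 0.59. Without control 24h replicate 2 its second control step was 0.86 units and the rule did not keep it.

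The member with the highest log2 intensity in control wings at 36h was also below control at 24h in dE2F1+dDP wings. Its mean levels at L3, 24h and 36h were 11.17, 12.15 and 15.04 in dE2F1+dDP wings, 11.75, 14.39 and 15.75 in Cbt wings, and 11.86, 14.48 and 15.85 in control wings. It was 2.33 units below control at 24h (a difference of -2.33, limma adjusted p = 3.94e-06), and the difference at 36h was -0.81 (limma adjusted p = 0.0942, from 0.00132 to 0.203 over 15 alternatives and called under 2 of them). Its control level at 36h of 15.85 lies close to the highest value on any array, 15.98, so the size of the difference at 36h is not exact.

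The member with the smallest change from 24h to 36h in dE2F1+dDP wings showed the opposite course. Its means were 8.23, 11.54 and 11.54 in dE2F1+dDP wings, 8.59, 11.59 and 12.71 in Cbt wings, and 8.97, 11.40 and 13.12 in control wings. The 3 lines had similar levels at 24h, and the difference between dE2F1+dDP and control was 0.14 units at 24h (SE 0.19, limma adjusted p = 0.654) and -1.58 at 36h (SE 0.19, limma adjusted p = 1.7e-07). Here the first control step was seen in dE2F1+dDP wings and the second was not.

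The 5 members that fell from 24h to 36h in dE2F1+dDP wings shared this lack of a second step. Their changes ran from -3.66 to -0.59 units. At 24h their difference from control ran from -0.06 to 3.64, and at 36h it ran from -3.60 to -1.13, with 4 of the 5 called lower at 36h. Of the 3 members that were higher in dE2F1+dDP wings at 24h, by 0.71, 1.81 and 3.64 units, 2 belonged to these 5, and all 3 had a lower mean than control at 36h. The count of 5 was 3 in 6 of 16 alternatives, among them the fit with slide as a term, the fit to the 2 groups alone and the one without dE2F1+dDP 24h replicate 3.

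Of the 2 members that were higher in Cbt larvae, the one not yet described averaged 8.01 ± 0.05 in Cbt wings and 6.81 ± 0.68 in control wings (SD, n = 4 each), with a limma adjusted p of 0.0327. The 2 lower ones averaged 7.94 ± 0.53 and 8.53 ± 0.14 in Cbt wings, against 9.57 ± 0.98 and 10.03 ± 1.40 in control wings (SD, n = 4 each), with differences of -1.63 and -1.51 units. The control SDs of 0.98 and 1.40 exceeded the Cbt SDs in both. In dE2F1+dDP larvae these 2 lower members averaged 8.21 and 8.42, nearer to Cbt than to control wings. The higher member described here averaged 6.57 there, nearer to control than to Cbt wings.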

How the data were processed

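The arrays were NimbleGen designs read in 1 colour (Cy3), 35 in 9 groups of line and stage as labelled. The authors deposited an intensity per transcript ID and array, made with RMA per the submitters' processing notes (from 14.6 to 64595), and a table of the same values as log2, which differed from log2 of the intensities by at most 5.0e-09. RMA usually corrects background, equalises array distributions and summarises probes. In the deposited log2 values the array medians over all transcripts still ran from 9.25 to 10.02. The version and settings of RMA and the annotation release are not given in the sources used here. Neither a detection call nor a measured background entered, and precision is set by how many arrays a group held.

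The log2 table was analysed in R 4.3.3 with limma 3.58.1: lmFit with 9 group means on all 35 arrays, eBayes (26 residual and 2.86 prior degrees of freedom), and Benjamini-Hochberg adjustment over 15473 transcripts, called at an adjusted p under 0.05. Python 3.11.15 with numpy 2.4.6, pandas 2.3.3 and matplotlib 3.10.9 gave descriptions and plots. The fit was also run on simulated data with independent noise on each array. These held no slide effect, outlying array or pairing, so they do not test how the fit handles them. Samples were independent isolates per the labels. Each p-value rests on 1 spread per transcript, pooled over all 9 groups. It does not rest on the spread of the 2 groups compared alone. For FBtr0086066 at 36h the SE was 0.83, with SDs of 0.43 in dE2F1+dDP and 0.16 in control wings. With the 2 groups alone, members called lower than control went from 171 to 129 at 24h and from 178 to 205 at 36h. Array slides were read from the deposited file names (9 slides), and within-slide values are given where a slide held both groups.

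The members, lists and tests were chosen with earlier results of these data known. The naming rule took every member tied to 1 gene (0) and, by ID, the largest called rise and fall from 24h to 36h in dE2F1+dDP and the lowest and highest dE2F1+dDP minus control difference at 36h. Members given by rank, or by counts of 5 or fewer were chosen after their values were seen.

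Replicate numbers are shared between groups in the labels. Deviations of same-numbered arrays from their group means correlated at 0.31 to 0.73 between dE2F1+dDP and control at 24h, all above 0.1. The corresponding ranges were 0.01 to 0.20 between dE2F1+dDP stages, 0.05 to 0.28 at 36h and -0.24 to 0.16 between Cbt and control larvae. The numbers may thus pair the arrays at 24h, but the main fit did not use a pairing. The replicate block used the same replicate terms for all 9 groups, and a fit that pairs the 24h arrays alone was not run.

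Alternatives were median centring, slide as a term, a replicate block, the 2 groups alone, array weights, leaving out dim transcripts, the per-array intensities, leaving out each array, leaving out both 24h arrays that stood apart, and other limits of the rule.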

Additional observations from a re-analysis of the deposited data

Results flagged for a closer look

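Among 64 groups of 4 arrays examined, 7 held an array farther from its nearest neighbour, relative to the group's range, than Dixon's 95% criterion allows, and chance gives about 1 in 20 such groups. The causes were not tested. Over the members as a whole, the median level on Cbt L3 replicate 4 was 7.41, below 7.59 to 7.63 on the other 3. FBtr0086066 read 10.35 on control L3 replicate 1, against 5.55 to 5.78 on the others, the array that also stood apart over the members, and 11.69 on dE2F1+dDP 36h replicate 4, against 12.45 to 12.58. FBtr0085710 read 11.90 on Cbt 36h replicate 1, against 8.63 to 8.84, and 9.95 on control 36h replicate 1, against 9.56 to 9.57. FBtr0078598 read 7.18 on dE2F1+dDP 24h replicate 3, against 4.98 to 5.20. The member with the smallest change from 24h to 36h in dE2F1+dDP wings read 10.93 on control 24h replicate 2, against 11.50 to 11.60.

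FBtr0085710 changed by -3.66 units from 24h to 36h in dE2F1+dDP wings, with every array at 36h below every array at 24h, while every control array at 36h lay above every control array at 24h, which the rule required of the means. The difference between these changes was not tested.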

How the results depend on the processing

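Under the alternatives to the fit, members called higher at 36h than at 24h in dE2F1+dDP (185) numbered 156 (slide as a term) to 199 (array weights), members lower than control at 24h (171) 129 (the 2 groups alone) to 186, and at 36h (178) 164 to 205. Leaving out 1 array gave 169 to 189, 151 to 177 and 160 to 174. With the replicate block the counts were 186, 173 and 181, with 2 higher and 2 lower in Cbt larvae, and the block changed no count by over 1.5 times. Its replicate terms were common to all 9 groups, so it does not test the pairing seen at 24h. In Cbt larvae the 2 higher members became 1 with slide as a term, 1 with the 2 groups alone and 0 to 2 without 1 array, and the 2 lower ones became 0 with slide as a term, 1 with the 2 groups alone, 6 with array weights and 0 to 4 without 1 array. The cause was not tested. Centring each array on its median moved the all-transcript median of the change in dE2F1+dDP after 24h from -0.03 to -0.18 and the members' median to 1.68. Calls over all transcripts then split into 980 higher and 1590 lower, against 1420 and 1042, and at 24h against control into 2223 and 1613, against 1917 and 2254. Over all transcripts, the 2 groups alone gave 823 and 579 for the change after 24h and 1031 and 1155 at 24h against control. Slide as a term gave 830 higher after 24h, and array weights gave 2555 and 2359 after 24h and 2644 lower at 36h. In Cbt larvae all-transcript calls were 78 and 41, but 37 and 14 with slide as a term, 254 and 204 with array weights, and 24 lower without Cbt L3 replicate 2. The rule itself kept 233 to 262 transcripts without 1 control array, with 201 to 239 of the 243 shared, and 231 after centring, with 230 shared. Without 1 array of Cbt or of dE2F1+dDP larvae, an alternative added after seeing the data, it kept 236 to 253. Of the 7 members described singly, 4 were lost from the set without 1 of the 23 arrays that the rule used, also an added alternative.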
